A study of Homo sapiens with 4 samples.

Results

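The mitotic cyclins and mitotic kinases described here are a set of 10 genes, chosen by name with earlier results of these data known. The set comprises the cyclin genes CCNA2, CCNB1 and CCNB2, the kinase genes CDK1, PLK1, AURKA, AURKB and BUB1, and the 2 regulators CDC20 and CDC25C. Of the 18885 genes in the deposited table, 9 were members, and CDC25C was not analysed here. They were measured by RNA sequencing in MV4-11, an established human acute myeloid leukemia (AML) cell line with monocytic features. The control group, sh-NC, had 2 libraries, and the ANP32B knockdown group, sh-ANP32B, had 2. The sample labels list no shRNA for the control cells, while the study's methods describe an sh-NC control and puromycin selection of stable lines, and the study's name for the group is used. If the control cells carried no vector, the knockdown and the transduction with selection cannot be told apart. The column names of the knockdown libraries carry a mark that matches the number of 1 hairpin of the study, so both libraries of the group are read here as carrying that hairpin. The time between selection and RNA collection is not given in the sources used here. The study describes its experiments in general as independent repeats. For RNA sequencing nothing ties the 2 libraries of a group to separate cultures, so p-values measure the spread between these libraries, which may be technical.

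Cyclin A2 and the B-type cyclins switch on the kinase CDK1, and the active complex drives cells from G2 into mitosis. WEE1 and PKMYT1 hold CDK1 inactive by phosphorylation, and the CDC25 phosphatases remove that block. PLK1, Aurora A and Aurora B then build the spindle and correct the attachment of chromosomes, while BUB1 works in the checkpoint that delays anaphase. CDC20 ends the phase by activating the anaphase-promoting complex (APC/C), a ubiquitin ligase that marks cyclin B and securin for destruction. Transcripts of these genes are low in G1 and peak in G2 and M, and their promoters are known for CCAAT boxes, bound by NF-Y, and for a cell cycle homology region (CHR) near the start site, bound by the DREAM and MYB-MuvB complexes.

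The promoter stretches of 7 measured members that held either kind of letters near their start are shown, because the report returns to these letters. CDC25C also held such letters, and as it was not measured here its sequence is not shown. RefSeq windows on GRCh38.p14 reach from 250 bases before to 50 bases after a transcription start, and the stretches printed run from -120 to 20, counted from the start, 5′ to 3′ on the strand of the gene. Capitals mark the box CCAAT, which reads as ATTGG where it lies on the other strand, and the CHR letters. The CHR letters searched were TTTGAA as the main form and TTCGAA as its variant, and the reverse of the first reads TTCAAA. The further forms TTTAAA as well as CTTGAA were added after the sequences had been seen. The 3 cyclin genes are given first. CCNA2 is from chr4:121823864-121824003 (minus strand), CCNB1 from chr5:69167030-69167169 (plus strand) and CCNB2 from chr15:59105026-59105165 (plus strand).
CCNA2: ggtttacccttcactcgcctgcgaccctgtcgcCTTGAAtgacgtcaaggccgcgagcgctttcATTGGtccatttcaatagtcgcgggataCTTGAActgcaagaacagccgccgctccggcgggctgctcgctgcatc
CCNB1: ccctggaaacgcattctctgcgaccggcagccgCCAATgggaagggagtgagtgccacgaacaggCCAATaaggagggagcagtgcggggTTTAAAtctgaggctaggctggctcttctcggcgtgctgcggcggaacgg
CCNB2: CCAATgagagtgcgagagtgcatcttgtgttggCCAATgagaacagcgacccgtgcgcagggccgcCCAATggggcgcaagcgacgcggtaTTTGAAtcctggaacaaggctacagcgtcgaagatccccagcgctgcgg

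The kinase genes and CDC20 follow. CDK1 is from chr10:60778358-60778497 (plus strand), PLK1 from chr16:23678769-23678908 (plus strand), BUB1 from chr2:110678044-110678183 (minus strand) and CDC20 from chr1:43358861-43359000 (plus strand). For CDK1, 1 of 2 RefSeq windows is shown.
CDK1: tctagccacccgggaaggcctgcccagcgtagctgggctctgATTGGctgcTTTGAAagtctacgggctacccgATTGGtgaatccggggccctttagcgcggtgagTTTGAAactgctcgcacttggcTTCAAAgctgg
PLK1: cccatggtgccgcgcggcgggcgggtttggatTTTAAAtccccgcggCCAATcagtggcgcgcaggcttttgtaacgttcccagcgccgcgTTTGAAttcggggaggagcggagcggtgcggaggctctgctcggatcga
BUB1: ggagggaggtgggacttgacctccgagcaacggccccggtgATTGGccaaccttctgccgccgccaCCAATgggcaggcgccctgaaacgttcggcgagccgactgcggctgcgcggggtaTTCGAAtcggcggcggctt
CDC20: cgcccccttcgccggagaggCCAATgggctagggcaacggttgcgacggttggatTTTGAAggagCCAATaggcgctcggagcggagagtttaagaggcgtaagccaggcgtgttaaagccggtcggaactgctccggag

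In CCNB2 and PLK1, the letters TTTGAA lay at -29 to -24. CCNB1 held TTTAAA at -30 to -25 and CCNA2 held CTTGAA at -28 to -23. All 3 cyclin genes had a CCAAT box just upstream, starting at -56 in CCNA2, -55 in CCNB1 and -54 in CCNB2. CCNB2 had 3 further CCAAT boxes in its window, at -87, -120 and -244. In BUB1, TTCGAA began at 2, just past the start, with CCAAT letters at -79 and -54. CDC20 held TTTGAA at -65 between CCAAT boxes at -100 and -55, and CDK1 held TTTGAA at -69 and -13 beside reverse CCAAT letters at -78 and -46. In CDC25C, 1 of 4 windows held TTTGAA at -30 to -25 and a reverse CCAAT at -85. AURKB showed none of the CHR letters, and its first window held a reverse CCAAT at -153. AURKA had no entry in the table.

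**Figure D1:**
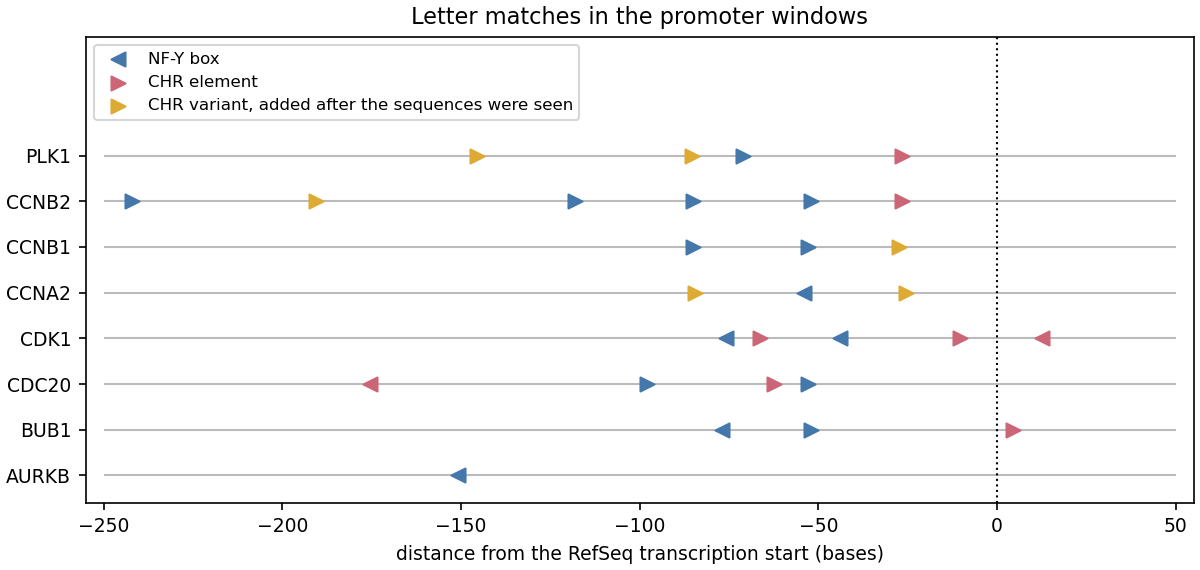
Letter matches in RefSeq promoter windows of the measured members (CDC25C is not drawn), by distance in bases from the transcription start, with arrowheads to the right for the gene's strand and to the left for the other strand. CHR letters start at -30 to -28 in CCNA2, CCNB1, CCNB2 and PLK1, and the nearest CCAAT of the 3 cyclin genes starts at -56 to -54.

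Counted on both strands, CCAAT occurred in the windows of 9 of the 9 members with an entry, CDC25C included, against 39.7% of all 27305 genes with a window. A gene with several windows was counted where any of them held the letters. TTTGAA or TTCGAA occurred in 6 of 9, against 19.5% of genes, and both kinds together in the same 6, against 7.85%. Over the 35116 single windows the shares were 34.6%, 16.4% and 6.38%. Read on the sense strand alone, the CHR letters were in 6 members and CCAAT in 7, against 11.8% and 23.3% of genes. With TTTAAA and CTTGAA added, 8 of 9 members held CHR letters, against 36.7% of genes. With the added forms, CHR letters starting from -35 to -20 and CCAAT starting from -60 to -45 were found in the 3 cyclin genes. Such a pair occurred in 0.157% of windows. CCNB1 qualified only through TTTAAA and CCNA2 only through CTTGAA. These added letters and the position limits were both chosen after the members' promoters had been seen, so the contrast was partly fixed in advance. A match of letters is a description and does not show that a factor was bound.

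The targeted gene was checked first. ANP32B (ENSG00000136938), which encodes a histone chaperone of the acidic nuclear phosphoprotein family, stood at 358 and 364 TPM in control libraries, compared with 54.1 and 49.3 TPM after knockdown, and 14.3% of the control mean remained. TPM are read densities over gene length scaled to a common total, so levels can be compared between genes, but the depth of each library is unknown. The AML blast markers listed were all measured, at unlike levels. HOXA9 stood at 184 and 186 TPM in sh-NC and 175 and 176 TPM in sh-ANP32B. FLT3 was low, at 6.20 and 6.30 TPM in sh-NC and 5.52 and 5.53 TPM in sh-ANP32B. KIT was lower still, at 2.30 and 2.57 TPM in sh-NC and 3.48 and 1.17 TPM in sh-ANP32B. Across tested genes the replicates had Pearson's r of 0.989 in sh-NC against 0.987 in sh-ANP32B, against 0.956 to 0.957 between groups. Genes are not independent replicates, and these r describe libraries only.

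Levels of all 9 members measured were lower after ANP32B knockdown, and between 42.2% and 54.8% of the control mean remained. Their summed level was 1550.4 and 1502 TPM in control libraries, compared with 698 and 719.6 TPM after knockdown, or 0.155% and 0.150% of all TPM against 0.07% and 0.0722%. No member had overlapping groups, and in 32.1% of all genes tested both knockdown libraries lay below both control libraries. In bulk RNA, fewer cells in G2 and M and less of each transcript per cell cannot be told apart.

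**Figure D2:**
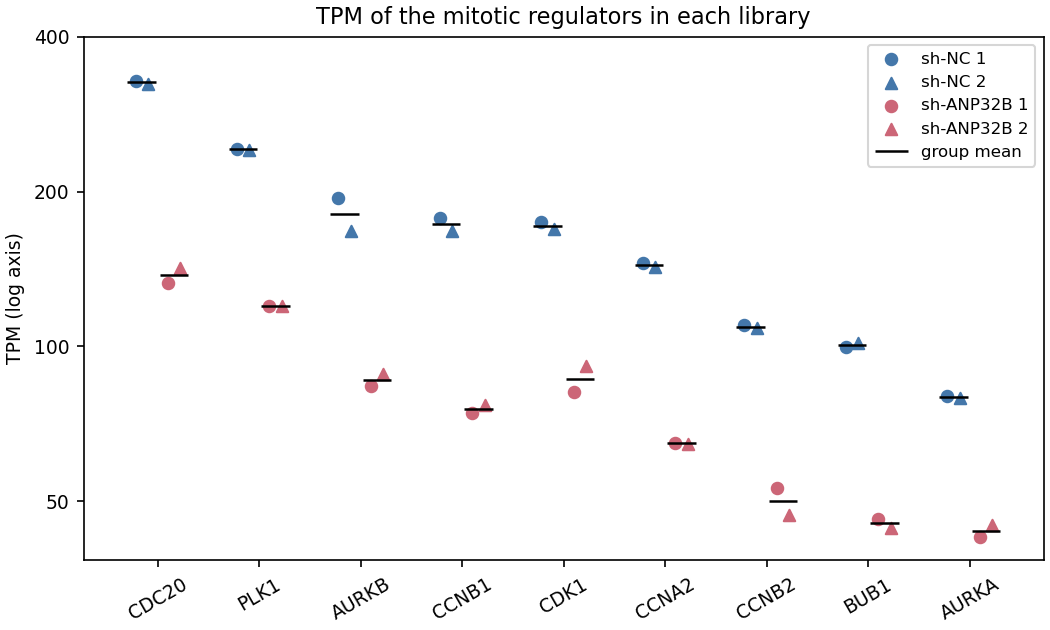
TPM of each member on a log axis, with 1 point per library (sh-NC and sh-ANP32B, replicates 1 and 2) and a black line at each group mean. For every member both sh-ANP32B points lie below both sh-NC points, from CDC20 at 328 and 324 TPM in sh-NC to AURKA at 80.2 and 79.3 TPM.

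Among the cyclins, CCNB1 (chr5:69167135-69178245, plus strand), the main partner of CDK1 at mitotic entry, had 177 and 168 TPM in sh-NC and 74.0 and 77.0 TPM in sh-ANP32B. Both control libraries stood far above both knockdown libraries. The group means were 173 ± 6.72 and 75.5 ± 2.11 TPM (SD, n = 2). On the log2(TPM + 1) scale the change was -1.18 (95% interval -1.31 to -1.06, adjusted p = 0.00011 from limma), and 43.7% of the control mean remained. CCNB2 (chr15:59105126-59125045, plus strand), a B-type cyclin found at the Golgi, had 109.8 and 108.5 TPM in sh-NC and 53.0 and 47.0 TPM in sh-ANP32B. The knockdown libraries differed from each other more than the controls did, and the groups remained well apart. Its log2 fold change was -1.11 (95% interval -1.29 to -0.94, adjusted p = 0.000235 from limma). CCNA2 (chr4:121816444-121823883, minus strand), which encodes the cyclin that acts in S phase with CDK2 and in G2 with CDK1, had 145 and 143 TPM in sh-NC and 64.9 and 64.6 TPM in sh-ANP32B. Replicates nearly coincided in both groups. CCNA2 fell by 1.14 on the log2 scale (95% interval -1.25 to -1.04, adjusted p = 8.68e-05 from limma). It shares 254 exonic bases with EXOSC9 on the opposite strand, and the handling of strand is not given in the sources used here. EXOSC9 was measured at 47.4 and 48.2 TPM in sh-NC and 31.1 and 34.0 TPM in sh-ANP32B, below CCNA2 in every library.

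CDK1 (chr10:60778331-60794852, plus strand), the catalytic subunit for these cyclins, had 174 and 169 TPM in sh-NC and 81.6 and 91.4 TPM in sh-ANP32B. The 2 knockdown libraries were further apart than the controls and both lay far below them. The log2 fold change of CDK1 was -0.98 (95% interval -1.14 to -0.82, adjusted p = 0.000274 from limma), with 50.4% of the control mean left.

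PLK1 (chr16:23677656-23690367, plus strand), the Polo-like kinase needed for centrosome maturation and mitotic entry, had 242 and 241 TPM in sh-NC and 119.7 TPM in each of the sh-ANP32B libraries. Within-group spread was the smallest of the members relative to level in the knockdown group. The change was -1.01 on the log2 scale (95% interval -1.10 to -0.91, adjusted p = 8.67e-05 from limma). An antisense transcript, ENSG00000261266, shares 553 exonic bases with PLK1 and stood at 0.954 to 2.08 TPM. AURKB (chr17:8204733-8210600, minus strand), the kinase of the chromosomal passenger complex, had 194 and 168 TPM in sh-NC and 83.6 and 88.4 TPM in sh-ANP32B. The control libraries of AURKB were the most divergent of any member, at 181 ± 18.6 TPM (SD, n = 2). The groups were still separated by a wide gap, with a log2 fold change of -1.06 (95% interval -1.26 to -0.87, adjusted p = 0.000372 from limma). AURKA (chr20:56369389-56392337, minus strand), the centrosome and spindle-pole kinase, had 80.2 and 79.3 TPM in sh-NC and 42.5 and 44.9 TPM in sh-ANP32B. AURKA was the member with the lowest level and kept the largest part of its control mean, 54.8%. Its log2 fold change was -0.85 (95% interval -0.99 to -0.72, adjusted p = 0.000257 from limma). BUB1 (chr2:110637528-110678063, minus strand), a kinase of the spindle checkpoint that also marks centromeric histone, had 99.7 and 101 TPM in sh-NC and 46.2 and 44.3 TPM in sh-ANP32B. Its control level was more than double either knockdown library. BUB1 fell by 1.14 on the log2 scale (95% interval -1.26 to -1.01, adjusted p = 0.000117 from limma).

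CDC20 (chr1:43358981-43363203, plus strand), the APC/C activator, was the member with the highest level and, with all libraries in use, the steepest fall. It had 328 and 324 TPM in sh-NC and 133 and 142 TPM in sh-ANP32B. Only 42.2% of the control mean remained, with a log2 fold change of -1.24 (95% interval -1.36 to -1.12, adjusted p = 8.96e-05 from limma). Without the first sh-ANP32B library, CCNB2 fell slightly more, at -1.20 against -1.19 for CDC20. The annotation names 2 pseudogenes of AURKA and 1 each of AURKB, BUB1, CCNB2 and CDC20, and reads of these copies could have been counted for the genes.

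**Figure D3:**
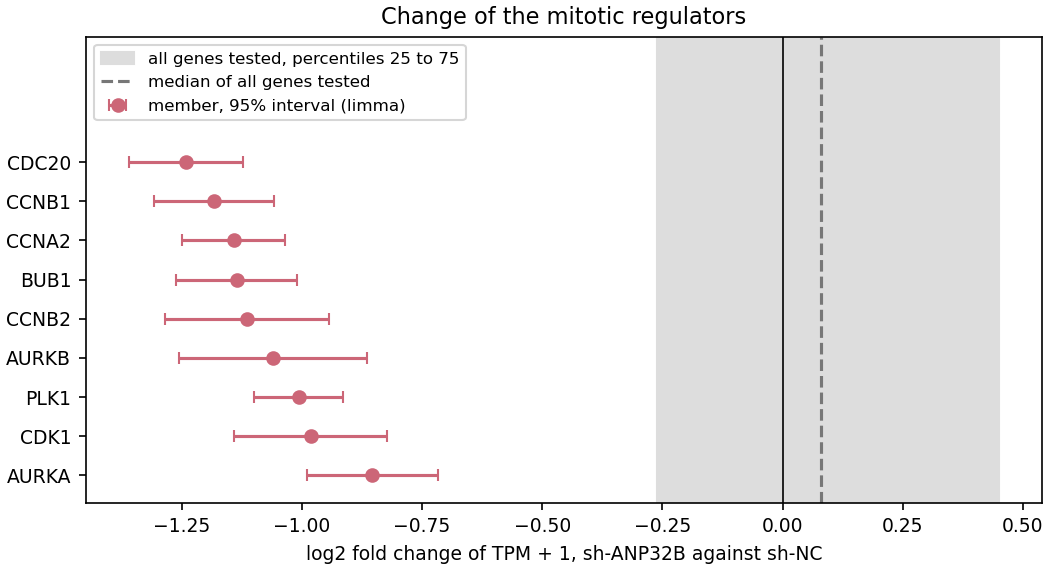
log2 fold change of TPM + 1 for each member (point) with its 95% interval from limma (bar), over the band between percentiles 25 and 75 of all genes tested (-0.26 to 0.45) and their median (dashed, 0.08). Every interval lies below the band, from CDC20 at -1.24 to AURKA at -0.85.

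A gene was called where its log2 fold change lay beyond 0.5 and its Benjamini-Hochberg adjusted p from limma lay below 0.05. All 9 members passed the filter on low values and 9 were called lower, against 10.1% of the 16937 genes tested that were called lower and 17.9% called higher. The members were chosen with earlier results of these data known, and the study had reported lower CCNB1 and PLK1 after knockdown. The contrast with all genes was therefore partly fixed in advance. Both knockdown libraries lay below both control libraries in 9 of 9 members and in 32.1% of all genes tested. The members' median log2 fold change was -1.11 and that of all genes 0.08. The share of calls that were lower was 36.1% on the TPM as deposited, 50.2% after quantile normalization and 48.9% after median-of-ratios scaling, which moved the median of all genes to -0.04 and -0.0045. Relative to the median of all genes, the members' median was -1.19 as deposited, -1.06 after quantile normalization and -1.21 after median-of-ratios scaling. In the ranking of all genes tested from the lowest log2 fold change, CDC20 stood at 83, CCNB1 at 114 and CCNA2 at 140. CDK1 stood at 321 and AURKA at 537, so the member with the smallest change still had 3.16% of the genes below it. For 1 gene alone, 2 libraries against 2 allow a smallest two-sided exact permutation p of 0.333, so the adjusted p values depend on variance pooled over genes by limma.

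The members kept much the same order of levels in both groups. In sh-NC, CDC20 was followed by PLK1, then by AURKB, CCNB1 and CDK1, whose neighbouring libraries overlapped, and then by CCNA2, CCNB2, BUB1 and AURKA, each apart from the next. In sh-ANP32B, CDC20 and PLK1 again led, CDK1 and AURKB overlapped, and CCNB1, CCNA2 and CCNB2 followed without overlap. BUB1 and AURKA, which were 101 ± 1.2 and 79.7 ± 0.625 TPM in sh-NC (SD, n = 2), overlapped in sh-ANP32B at 45.2 ± 1.37 and 43.7 ± 1.73 TPM.

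Ratios between members within a library do not depend on how libraries were scaled, so they show where the fall was unequal. They are given as descriptions without a test. CCNB1 over CDK1 was 1.02 and 0.994 in sh-NC against 0.907 and 0.842 in sh-ANP32B. Both knockdown ratios were lower, by 0.20 on the log2 scale, against a gap between replicates of up to 0.11. CCNA2 over CDK1 was 0.834 and 0.846 in sh-NC against 0.795 and 0.707 in sh-ANP32B. That difference, -0.16, was no larger than the 0.17 between the knockdown replicates. CCNB2 over CDK1 overlapped between the groups, at 0.631 and 0.642 in sh-NC against 0.649 and 0.514 in sh-ANP32B. AURKA over AURKB was 0.413 and 0.473 in sh-NC against 0.508 in both sh-ANP32B libraries, a difference of 0.20 on the log2 scale beside a gap of 0.19 between the controls. CDC20 over BUB1 overlapped between the groups, at 3.29 and 3.2 in sh-NC against 2.87 and 3.22 in sh-ANP32B.

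Against the geometric mean of the 9 members in the same library, AURKA shifted most. It was 0.508 and 0.518 of that mean in sh-NC against 0.587 and 0.61 in sh-ANP32B, a rise of 0.22 on the log2 scale beside a gap between replicates of up to 0.05. CDC20 moved the other way, from 2.08 and 2.12 times the mean to 1.83 and 1.93 times, a difference of -0.16 with a gap of up to 0.08. PLK1 shifted by 0.08, CCNB1 by -0.10 and CCNA2 by -0.06, each beyond its gap between replicates of up to 0.04. For CCNB2, AURKB and BUB1 the groups overlapped, and for CDK1 the shift of 0.10 was smaller than the gap of 0.14. CDC20 made up 21.1% and 21.6% of the members' summed TPM in sh-NC against 19.0% and 19.8% in sh-ANP32B.

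**Figure D4:**
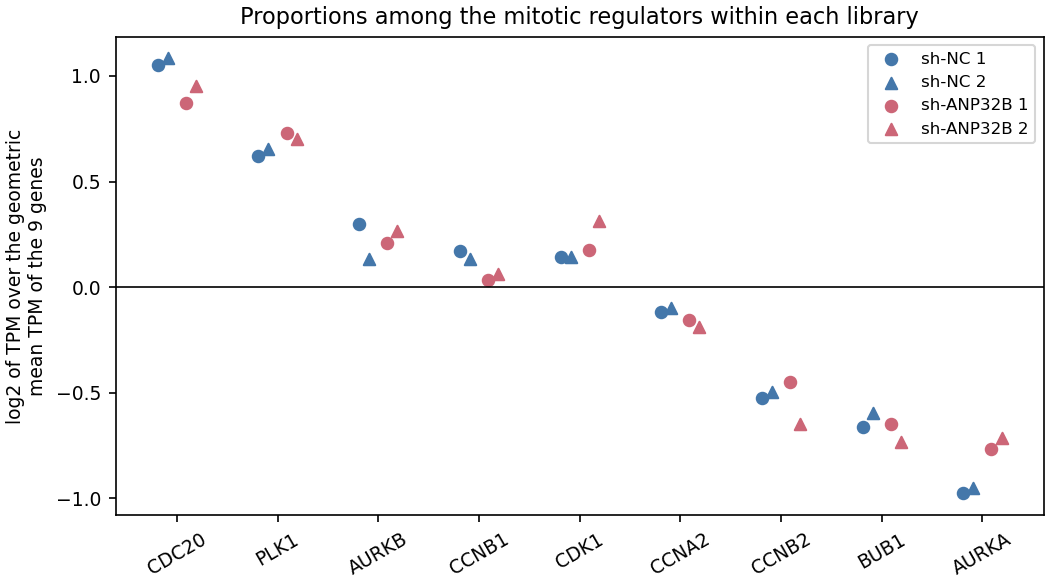
log2 of each member's TPM over the geometric mean TPM of the 9 members in the same library, with 1 point per library. AURKA moves up from -0.98 and -0.95 in sh-NC to -0.77 and -0.71 in sh-ANP32B, CDC20 moves down from 1.05 and 1.08 to 0.87 and 0.95, and the CCNB2, AURKB and BUB1 points overlap between groups.

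The genes that work with the members were read from lists, chosen with earlier results of these data known, that held 103 genes, of which 98 were tested. Of these, 45 were called lower, 3 were called higher and 50 were not called, with a median log2 fold change of -0.44. Over all genes tested these shares were 10.1% lower and 17.9% higher, against which the list counts that follow can be read. Some genes stand in more than 1 list.

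Among cyclin and CDK1 relatives, 4 of 8 tested genes were called lower. CKS1B, a small CDK-binding protein, had 326 and 312 TPM in sh-NC and 142 and 136 TPM in sh-ANP32B, a log2 change of -1.19 (adjusted p = 8.68e-05 from limma). CKS2 (-0.66), CDK2 (-0.88) and CCNF (-0.58), which encodes an F-box protein of the cyclin family, also fell. CCNA1, the germline relative of CCNA2, had 30.9 and 25.9 TPM in sh-NC and 32.3 and 29.5 TPM in sh-ANP32B, so its groups overlapped. The CDK-activating kinase genes CDK7 (-0.20), CCNH (-0.07) and MNAT1 (-0.30) were not called, so the cyclin partner subunits and the activating kinase differed in their calls. CCNB1 over CCNF, a pair chosen after values were seen, was 3.24 and 2.97 in sh-NC against 2.04 and 2.05 in sh-ANP32B.

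Both sides of the switch on CDK1 fell. WEE1, an inhibitory kinase, had 56.1 and 55.5 TPM in sh-NC and 25.8 and 25.1 TPM in sh-ANP32B, a log2 change of -1.10 (adjusted p = 0.000174 from limma). PKMYT1, the membrane-bound inhibitory kinase, fell by 0.82 on the log2 scale. CDC25A, an activating phosphatase, had 47.3 and 46.6 TPM in sh-NC and 20.5 and 21.4 TPM in sh-ANP32B (log2 fold change -1.13). CDC25B, its relative, changed by -0.62, and without the second sh-ANP32B library its change of -0.49 was no longer called. CDK1 over WEE1 was 3.11 and 3.04 in sh-NC against 3.16 and 3.64 in sh-ANP32B. That ratio differed by 0.14 on the log2 scale, less than the 0.21 between the knockdown libraries. CDK1 over PKMYT1 was 1.61 and 1.54 in sh-NC against 1.33 and 1.49 in sh-ANP32B, a difference no larger than that between replicates. These pairs with WEE1 and PKMYT1 were chosen after values had been seen.

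Among the relatives and partners of the Aurora and Polo kinases, 6 of 8 were called lower and 1 was called higher. TPX2, the activator of Aurora A on the spindle, had 499 and 498 TPM in sh-NC and 252 and 258 TPM in sh-ANP32B. This was the highest level on the list, with a log2 change of -0.97 (adjusted p = 8.55e-05 from limma). The other subunits of the complex of Aurora B fell as well, INCENP by 1.05, CDCA8 by 0.88 and BIRC5, which encodes survivin, by 0.81 on the log2 scale. BORA, an activator of Aurora A toward PLK1, fell by 0.98. PLK4, the kinase of centriole duplication, had 42.1 and 46.7 TPM in sh-NC and 20.9 and 19.4 TPM in sh-ANP32B, and PLK1 over PLK4 overlapped between the groups, a pair chosen after values were seen. PLK3 was not called (0.15, adjusted p = 0.342 from limma). PLK5, which lacks a working kinase domain in human, was called higher from 0.344 and 0.251 TPM to 2.38 and 2.97 TPM, and it passed the filter only through the knockdown libraries.

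Of the other mitotic kinases, 8 of 13 were called lower and none of the 13 was called higher. PBK had the lowest value, with 72.2 and 67.2 TPM in sh-NC and 20.6 and 22.3 TPM in sh-ANP32B, a log2 change of -1.66 (adjusted p = 0.000115 from limma). NEK2 (-1.17), HASPIN (-1.06), which phosphorylates histone at centromeres, and TTK (-1.02), a checkpoint kinase, also fell. NEK6 (0.48), STK10 (0.42) and NEK9 (0.39) had positive values under the fold limit, which NEK6 crossed after quantile normalization and without the second library of either group.

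In the spindle assembly checkpoint list, 8 of 12 were called lower, and all 12 had negative log2 fold changes. BUB1B, which encodes BUBR1, had 92.0 and 97.3 TPM in sh-NC and 44.8 and 42.0 TPM in sh-ANP32B. BUB1 over BUB1B, a pair chosen after values were seen, was 1.08 and 1.04 in sh-NC against 1.03 and 1.05 in sh-ANP32B, so the proportion of these relatives overlapped between groups. MAD2L1, the checkpoint protein that binds CDC20, had the lowest value of the list, -1.19. MAD1L1, its partner at the kinetochore, had 156 and 172 TPM in sh-NC and 159 and 164 TPM in sh-ANP32B, with a log2 change of -0.03 (adjusted p = 0.744 from limma).

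The APC/C, the ligase that CDC20 activates, has many subunits. Of 14 tested, 1 was called lower, a share close to the 10.1% of all genes, namely ANAPC1, with 49.9 and 50.8 TPM in sh-NC and 34.5 and 32.3 TPM in sh-ANP32B (log2 fold change -0.58). The other 13 were not called and the list median was -0.11. The count was 3 under median-of-ratios scaling, and 2 with a pseudocount of 0.1, after quantile normalization and without the first sh-NC, the second sh-NC or the second sh-ANP32B library. CDC23 (-0.49) and ANAPC15 (-0.43) were the subunits that crossed the limit. The highest value was that of ANAPC2, 0.26. FZR1, the coactivator that takes over from CDC20 at mitotic exit, had 26.1 and 26.0 TPM in sh-NC and 23.1 and 22.1 TPM in sh-ANP32B (log2 fold change -0.20, adjusted p = 0.0679 from limma). The ratio of CDC20 to FZR1, chosen after values were seen, was 12.6 and 12.5 in sh-NC against 5.74 and 6.45 in sh-ANP32B. The difference of -1.04 on the log2 scale was several times the 0.17 between replicates. In the list of the coactivator, E2 enzymes, inhibitor and substrates, 6 of 8 were called lower. Among them were UBE2C (-1.15) and UBE2S (-1.03), the E2 enzymes that work with the APC/C, FBXO5 (-1.19), its inhibitor, and PTTG1 (-0.93), which encodes securin. UBE2D1, a less selective E2 enzyme, was not called (0.15).

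Phosphatase genes of mitotic exit were mostly not called, with 2 of 11 lower. PPP2R2D, a regulatory B55 subunit, had 72.9 and 76.1 TPM in sh-NC and 46.4 and 39.5 TPM in sh-ANP32B (log2 fold change -0.79). PPP2R1B, a scaffold subunit, sat on the fold limit at -0.50 and lost its call without the second sh-NC or the first sh-ANP32B library. PPP1CA, a catalytic subunit, had 240.0 and 249 TPM in sh-NC and 243 and 246 TPM in sh-ANP32B, and PPP2CB had the highest value of the list, 0.30.

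Of 15 G2/M transcription factors and DREAM subunits, 5 were called lower, while 11 had negative log2 fold changes. FOXM1, an activator of G2/M promoters, had 102 and 109 TPM in sh-NC and 53.3 and 54.9 TPM in sh-ANP32B (log2 fold change -0.95). MYBL2, the MYB-MuvB factor, had 166 and 168 TPM in sh-NC and 82.7 and 80.2 TPM in sh-ANP32B, the lowest value of the list at -1.03 (adjusted p = 0.000108 from limma). LIN9, a MuvB core subunit, fell by 0.79, RBL1, which encodes p107, by 0.59 and RBBP4 by 0.52 on the log2 scale. RBBP4 was no longer called after quantile normalization, nor was RBL1 without the second sh-ANP32B library. The other MuvB subunits LIN37 (0.39), LIN52 (0.04) and LIN54 (-0.27) and the NF-Y subunits NFYA (-0.32), NFYB (-0.43) and NFYC (0.11) were not called. Among all tested genes with a promoter window, 11.7% of 10016 were called lower. The share was 15.7% of the 1544 with TTTGAA or TTCGAA, 13.0% of the 4270 with CCAAT and 20.0% of the 650 with both. Their medians, between -0.04 and 0.02, lay far above those of the members.

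Genes that restrain CDK1 were mixed, with 3 of 7 lower and 2 higher. CHEK1, the checkpoint kinase that blocks CDC25 phosphatases, had 49.9 and 61.7 TPM in sh-NC and 18.9 and 18.3 TPM in sh-ANP32B, a log2 change of -1.53 (adjusted p = 0.00035 from limma). CHEK2 (-0.70) and GADD45B (-0.68) also fell. CDKN1A, which encodes the CDK inhibitor p21, rose from 8.56 and 7.15 TPM to 16.5 and 20.2 TPM (log2 fold change 1.13, adjusted p = 0.00215 from limma). CDKN1C, which encodes p57, lay between 0.573 and 2.19 TPM and passed the filter only through the knockdown libraries. Its call (0.78) was lost without either control library, with the replicate block and after quantile normalization. CDKN1B, which encodes p27, was not called (-0.28).

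**Figure D5:**
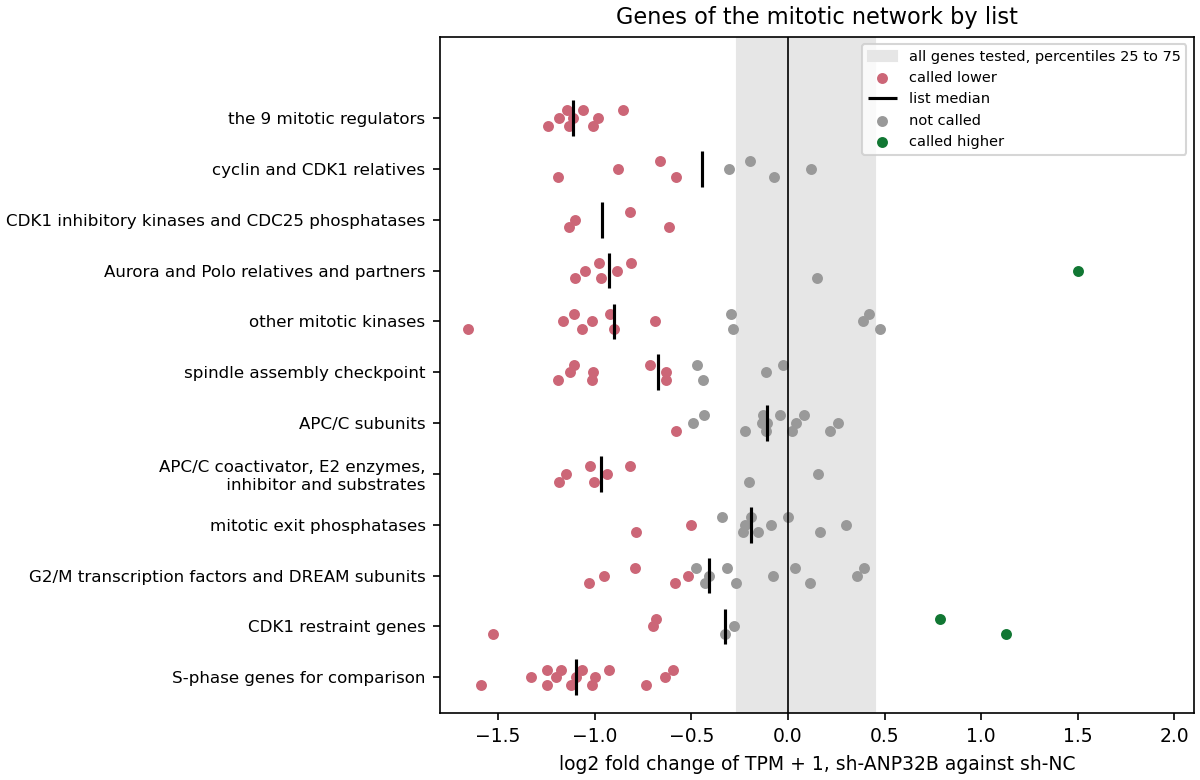
log2 fold change of TPM + 1 of each tested gene of the mitotic network by list, coloured by call, with a black line at each list median and a band between percentiles 25 and 75 of all genes tested. The list of CDK1 inhibitory kinases and CDC25 phosphatases has its median at -0.96, while the APC/C subunits gather around -0.11 and the phosphatases around -0.19.

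The fall of the members was set beside genes of another phase. All 15 S-phase genes tested fell, with a median log2 fold change of -1.10, from CDT1 (-1.59) to CCNE2 (-0.60). The proliferation markers MKI67 (-0.93), TOP2A (-0.99) and PCNA (-1.07) fell in the same range as the members, and no test of a difference between these lists was made. CCNB1 over MKI67, chosen after values were seen, was 1.72 and 1.56 in sh-NC against 1.31 and 1.45 in sh-ANP32B, so CCNB1 was lower against this marker in both knockdown libraries.

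Markers of mature monocytes and macrophages moved with the groups. Their summed level was 610 and 597 TPM in sh-NC and 6128 and 6090 TPM in sh-ANP32B, with LYZ, which encodes lysozyme, at 471 and 464 TPM against 5308 and 5260 TPM. Of 9 measured, 8 were called higher and CSF1R (0.56, adjusted p = 0.0828 from limma) was not. Without either sh-ANP32B library 5 were called higher. Some of them, such as S100A8 and S100A9, stood below 1 TPM in both control libraries and so passed the filter only through the knockdown libraries. Of the 7 AML blast markers, MEIS1 (-0.61) fell, CD4 (0.69) and SPI1 (0.51) rose, and CD33, FLT3, HOXA9 and KIT were not called. SPI1 was not called after median-of-ratios scaling or without the first sh-NC library. CD2, the T cell marker measured, stood at 0.521 and 0.442 TPM in sh-NC and 3.62 and 3.63 TPM in sh-ANP32B. CD79A, a B cell marker, lay between 0.0867 and 1.54 TPM, and CD14 and the erythroid, epithelial and fibroblast markers were not analysed here. The part of these markers in the fall of the mitotic genes was not tested.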

How the data were processed

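RNA of MV4-11 cells was sequenced from 2 sh-NC and 2 sh-ANP32B libraries, and groups were taken from the sample labels. Per the submitters' processing notes, reads were aligned to hg38 with HISAT2 (version 2.0.5). The authors deposited TPM per gene and library, a unit read from the values. The counting tool, annotation and strand setting behind it are not given in the sources used here. All columns were used. Genes in the table have a mean of at least 0.5 TPM, the totals were 998546, 998353, 997699 and 997271, and TPM give no depth and so no counting error. Symbols were matched for 17290 of 18885 identifiers, with positions from the GENCODE annotation of hg38.

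Genes at 1 TPM or more in any 2 libraries (16937) were fitted with limma (version 3.58.1, R 4.3.3; lmFit, then eBayes with a trend) on log2(TPM + 1), without a block. A call needed a log2 fold change beyond 0.5 and a Benjamini-Hochberg adjusted p below 0.05. Fold changes understate the change of low genes on this scale. In simulated data of 16937 genes, 198 of 200 changed genes were recovered with 4 false calls. The simulated noise was normal and followed the trend of spread over level, and the shifts lay well beyond the fold limit. These numbers are therefore no error rate for the calls in the real data. Same-numbered libraries did not deviate together (correlation -0.0232). Alternatives were a pseudocount of 0.1, no filter, the replicate block, quantile normalization, median-of-ratios scaling, an unadjusted p, a log2 fold limit of 1 and each library left out. Promoter letters were searched in RefSeq windows on GRCh38.p14. Tables and plots were made in Python 3.11.15 (pandas 2.3.3, numpy 2.4.6, matplotlib 3.10.9). The members and lists were chosen with earlier results of these data known. The genes named are the members, ANP32B, the highest and lowest gene of each list and partners, opposing enzymes or relatives of a member, and some further list genes were chosen after their values were seen. Some marker genes of the lists are not reported here.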

Additional observations from a re-analysis of the deposited data

How the results depend on the processing

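With all libraries in use and the fold and p limits unchanged, all 9 members remained called lower in every alternative fit. With 1 library left out, the members' log2 fold changes lay between -1.29 (CDC20) and -0.81 (AURKA). With the replicate number as a block, 9 members, 1671 genes in all lower and 2853 higher were called, and the highest adjusted p of a member was 0.00198 (AURKB). The deviations of same-numbered libraries were not correlated over genes (correlation -0.0232), which cannot show whether they were prepared together. Median-of-ratios scaling moved the members' median log2 fold change to -1.21. Across fits without 1 library, the number of pathway genes called higher ranged from 1 to 4, against 3. It was 1 without the first sh-ANP32B library, and without either sh-ANP32B library PLK5 and CDKN1C were not tested. A log2 fold limit of 1 left 7 members (CDK1 and AURKA were lost), 19 pathway genes lower (against 45), and 273 genes lower and 1136 higher over all genes (against 1712 and 3024). At an unadjusted p below 0.05, 1833 genes were lower and 3413 higher. Under the log2 fold limit of 1, the count called lower went to 10 from 15 for S-phase genes. It went to 2 from 6 for Aurora and Polo relatives and partners. For the other mitotic kinases and for the checkpoint it went to 5 from 8. For G2/M factors it went to 1 from 5, and for cyclin and CDK1 relatives to 1 from 4. Depth is unknown, so the counting error of low genes such as PLK5 and CDKN1C cannot be estimated. With 1 library left out, the lone library is assumed to vary like the other group.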
